A study of Mus musculus with 6 samples.

Results

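The olfactory receptor (OR) genes *Olfr832* to *Olfr986* were followed through single-cell RNA-seq of the mouse main olfactory epithelium. Members were taken by name alone, as genes called *Olfr* with a number from 832 to 986 and no pseudogene suffix, which gave 110 of the 1116 OR genes in the files (9.86%). Of these, 108 were found in the RefSeq annotation, all on chromosome 9 of GRCm38.p6, where they form a proximal cluster of 28 genes (chr9:18944650-20301170) and a distal cluster of 80 genes (chr9:37745300-40188094). *Olfr899* and *Olfr900* were not placed. RefSeq gives 105 members as protein coding, 2 as transcribed pseudogenes (*Olfr844* and *Olfr908*) and 1 (*Olfr915*) as a miscellaneous RNA. The coding sequences of 2 members of the same cluster shared a median of 64.3% (proximal) or 63.5% (distal) of their bases, against 51.3% for a proximal and a distal member. A member at least 95% identical was found for 16 members, among them *Olfr874* and *Olfr875* (95.6%), *Olfr910* and *Olfr912* (96.0%) and *Olfr869* and *Olfr872* (95.4%), and reads of such genes may be split or dropped by the counting.

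An OR is a G protein-coupled receptor of the cilia of olfactory sensory neurons (OSNs), and a mature OSN transcribes a single OR allele at a high level. The OR genes lie in clusters that are packed in heterochromatin marked by H3K9me3, and the alleles that are not chosen stay silent. Each OR is chosen within a zone of the epithelium along its dorsoventral axis. HP1β, encoded by *Cbx1*, binds H3K9me3, as does HP1α, encoded by *Cbx5*.

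The 6 libraries were 2 swap, 2 control, 1 *tetOP2* and 1 *gg8tTA*. Swap mice carried the *Cbx* swap allele on both chromosomes (Cbx*/*) and a Cre allele active in the neuronal lineage, by which HP1α is made from the *Cbx1* locus in place of HP1β. Control replicate 1 was labelled as wild type at *Cbx* with the Cre allele, and control replicate 2 as Cbx*/* with no Cre allele listed, so the controls differ from the swap mice in different ways. The *tetOP2* mouse (gg8-tTA; tetOP2iresGFP) drives the receptor P2 (*Olfr17*) in OSNs from a transgene, and the *gg8tTA* mouse carried only the driver. Ages were not given. *Xist*, the RNA of the inactive X chromosome, reached 1271 to 1462 CPM (a gene's UMIs, unique molecular identifiers, scaled to a common total) in swap replicate 1, *gg8tTA* and *tetOP2*, and 0.317 to 0.624 CPM in the other 3 libraries, so that sex differed within the swap group. Swap libraries had 1.16 and 2.89 CPM of *Cbx1* in mature OSNs against 80.9 and 140 CPM in control libraries, and *Cbx5* stood at 88.6 and 102 against 20.02 and 44.9 CPM. The libraries held 32005196 to 63277934 UMIs, and kept cells had medians of 9991 to 11543 UMIs. No pair of libraries shared more than 13 cell barcodes. The labels give OSN as the cell type, but 333 to 771 kept cells of each library passed a gate for sustentacular cells, the support cells of the epithelium (at least 10 UMIs of *Cyp2g1* and more *Cyp2g1* than *Omp*).

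Mature OSNs were cells with at least 10 UMIs of *Omp*, the olfactory marker protein, and more *Omp* than *Gap43* UMIs. This gave 686 to 1310 cells per library. The chosen OR of a cell was the OR gene with the most UMIs, at least 3, and it was found in 604 to 1179 of them. Cells choosing a member resembled mature OSNs by their markers: summed over *Omp*, *Cnga2*, *Cnga4*, *Adcy3*, *Gnal*, *Stoml3* and *Rtp1* they held 6723 to 13459 CPM, while sustentacular cells of the same libraries held 145 to 1437 CPM. Both gates use *Omp*, so this contrast is fixed in part by the gates. In all mature OSNs *Omp* made up 2377 of the summed 6205 CPM in control replicate 1 and 8581 of 12860 CPM in *tetOP2*. None of those 7 genes was at 0 in the member cells of any library. Of the other cell types, B cell markers were at 0 in the member cells of the 4 swap and control libraries and haemoglobin genes summed to 0 to 3.64 CPM there, and in *gg8tTA* and *tetOP2* to 38.1 and 7.58 CPM. B cell markers were at 3.81 and 7.58 CPM in the latter, and macrophage markers at 0 to 20.9 CPM over all libraries. Other lists were higher. Vomeronasal markers summed to 227 to 455 CPM in member cells and 278 to 394 CPM in all mature OSNs. Respiratory markers had 64.6 to 152 against 71.2 to 505 CPM, and immature OSN markers 839 to 2335 against 761 to 1756 CPM. The summed level of 5 markers of sustentacular cells was higher in the replicates numbered 2, at 5892 CPM (control) and 4222 CPM (swap) in member cells against 27.8 and 471 CPM in the replicates numbered 1. Their part in the results below was not tested.

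The upstream sequence of 3 members is shown because the results below turn on them. *Olfr910* was the member chosen by the most cells, *Olfr976* was among the most dorsal and *Olfr872* was accompanied in its cells by a neighbouring gene. Each runs 5′ to 3′ up to the start of the gene, from the RefSeq promoter windows of GRCm38.p6. Capitals mark matches to TAATTA, a core bound by LIM-homeodomain factors such as Lhx2, on either strand.
Olfr910 (chr9:38537682-38537848, plus strand): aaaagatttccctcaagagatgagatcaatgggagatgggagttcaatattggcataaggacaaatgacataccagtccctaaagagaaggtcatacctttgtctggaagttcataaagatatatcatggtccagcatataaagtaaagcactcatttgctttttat
Olfr976 (chr9:39961134-39961244, minus strand): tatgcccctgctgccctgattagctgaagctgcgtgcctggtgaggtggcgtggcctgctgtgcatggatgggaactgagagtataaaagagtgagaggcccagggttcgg
Olfr872 (chr9:20236962-20237118, plus strand): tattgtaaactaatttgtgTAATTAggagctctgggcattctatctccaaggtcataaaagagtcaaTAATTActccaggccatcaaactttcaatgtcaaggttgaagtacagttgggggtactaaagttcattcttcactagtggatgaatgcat

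*Olfr872* holds TAATTA at 2 places, and the other two hold none in these windows. In the 300-base RefSeq windows, TAATTA stood in 21 of 91 member windows (23.1%), 18.1% of the windows of other ORs and 5.31% of those of all genes. A second homeodomain core, TAATGA, stood in 25.3%, 29.2% and 9.99%. The motif CCCNNGGG of the Ebf factors stood in 1 member window (1.10%), 3.22% of those of other ORs and 13.4% of those of all genes. All motifs were searched on both strands without regard to overlap. For most ORs RefSeq starts at the coding sequence rather than at the transcription start, so that most windows are not promoters. Only 10 members had a RefSeq start near the start of a spliced transcript and a window free of exons.

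Over the 6 libraries 266 of 5020 mature OSNs with a chosen OR had chosen a member (5.30%). In the libraries with neither swap nor *tetOP2* the members took 168 of 2736 cells (6.14%), against their 9.86% of OR genes. By library they were chosen by 52 of 953 cells in control replicate 1 (5.46%, exact Clopper-Pearson 95% interval 4.10% to 7.09%) and 71 of 1179 in control replicate 2 (6.02%, 4.73% to 7.54%). Swap replicate 1 had 35 of 677 (5.17%, 3.63% to 7.12%) and swap replicate 2 had 51 of 955 (5.34%, 4.002% to 6.96%). The *gg8tTA* library had 45 of 604 (7.45%, 5.49% to 9.84%) and the *tetOP2* library 12 of 652 (1.84%, 0.955% to 3.19%). These intervals cover counting error only. Each swap value lay below both control values, with a mean difference of -0.484 percentage points (-0.201 without control replicate 2 and -0.767 without control replicate 1), but groups of 2 allow no p below 0.333 in the exact two-sided permutation test, which was the p found.

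Cells spread thinly over the members. *Olfr910*, a distal gene, led with 13 cells, followed by *Olfr845* and *Olfr872* (10 cells each), both proximal. *Olfr910* was chosen by 4 and 2 cells of the control libraries, 0 and 3 of the swap libraries, 3 of *gg8tTA* and 1 of *tetOP2*. No member took more than 13 of the 266 cells. A total of 70 members were chosen at least once, 24 of them in a single library, and 40 were never chosen by a mature OSN (36.4% of members, beside 17.2% of the other ORs). Never chosen were 6 of the 28 proximal and 32 of the 80 distal genes.

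Of the members never chosen, 25 had no UMI in mature OSNs. No UMI in any kept cell was found for 8 members, which were *Olfr883*, *Olfr891*, *Olfr905*, *Olfr926*, *Olfr936* and *Olfr978* of the distal cluster and the 2 genes without a position. The annotated 3′ untranslated region, from which the reads of a 3′ library come, had a median of 1980 bases in the 70 chosen members and 654.5 bases in the 38 never chosen members with an annotation. None at all was annotated for 9 of the latter and 1 of the former, and the part of the annotation in these counts was not tested.

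**Figure D1:**
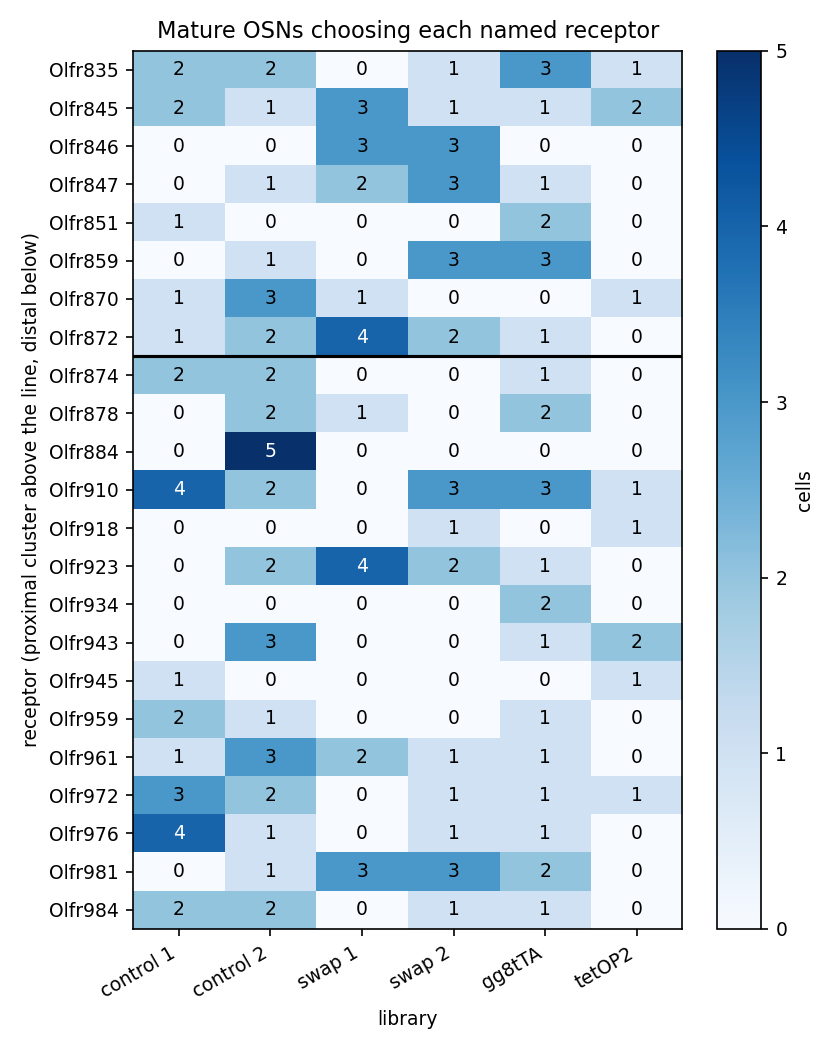
Number of mature OSNs (colour and printed value) that chose each of the 23 members named by rule, in rows, in each of the 6 libraries, in columns. No value exceeds 5, and *Olfr846* has 3 cells in each swap library and 0 in the other libraries.

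The UMIs of the members came almost all from cells that had chosen them. Mature OSNs held 4247 and 7983 member UMIs in the control libraries, 3089 and 4728 in the swap libraries, 3624 in *gg8tTA* and 1043 in *tetOP2*, and 94.9% to 99.3% of these were UMIs of the chosen OR in a cell that chose a member. As a background, sustentacular cells, which do not choose ORs, were read by the same rule. A member passed it in 0 of 771 (which allows up to 0.389%) and 11 of 534 (2.06%) sustentacular cells of the control libraries and in 4 of 633 (0.632%) and 5 of 674 (0.742%) of the swap libraries. In all mature OSNs the share was 4.93% and 5.42% in control and 4.55% and 4.89% in swap libraries. Sustentacular cells were as deep or deeper, with medians of 12468 to 20677.5 UMIs against 11310.5 to 12957.5 in mature OSNs, and any OR passed the rule in 4.41% to 23.0% of them. The background of control replicate 2 was thus the highest of the swap and control libraries.

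Cells choosing a member scored more dorsal than cells of other ORs by the score below, with the lower scores in cells of distal members. Proximal member cells scored more ventral than cells of other ORs in control replicate 1, swap replicate 2 and *gg8tTA*, and more dorsal in the rest. The dorsoventral score of a cell was the mean of 5 ventral markers (the adhesion and guidance genes *Ncam2* and *Nrp2* and the transcription factors *Nfia*, *Nfib* and *Nfix*) minus that of 4 dorsal markers (the quinone reductase *Nqo1*, *Acsm4*, and the guidance genes *Robo2* and *Sema3f*), each on a log scale and standardized on control or *gg8tTA* cells. Higher scores are more ventral. Member cells averaged -0.25 and -0.56 in the control libraries, -0.57 and -0.40 in the swap libraries, -0.34 in *gg8tTA* and -0.03 in *tetOP2*. The cells of other ORs averaged 0.03, 0.11, -0.14, -0.18, 0.02 and 0.34 in the same order. Member cells were lower in 6 of 6 libraries, with a mean difference of -0.39 ± 0.16 (SD, n = 6; exact sign-flip test, two-sided, p = 0.0313, the smallest that 6 libraries give, adjusted p = 0.0417 over 4 such comparisons). In *tetOP2*, however, 381 of the 640 cells of other ORs had chosen *Olfr17*, the receptor of the transgene. Over the 4 swap and control libraries alone the mean difference was -0.40 (exact sign-flip test, p = 0.125, the smallest possible there).

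Distal member cells had scores of -0.47 and -0.79 in the control libraries, -0.93 and -0.66 in the swap libraries, -0.75 in *gg8tTA* and -0.07 in *tetOP2*. Proximal member cells had 0.40, -0.02, -0.27, -0.13, 0.33 and 0.01. The distal genes were lower in 6 of 6 libraries, with a mean difference of -0.67 ± 0.34 (SD, n = 6; exact sign-flip test, two-sided, p = 0.0313, adjusted p = 0.0417). This comparison was chosen after the data had been seen, and in *tetOP2* it rests on 7 distal and 5 proximal cells. Over the 4 swap and control libraries alone the mean difference was -0.71 (exact sign-flip test, p = 0.125, the smallest possible there). With a second list of markers (*Cidea*, *Rprm*, *Ifi27*, *Pcp4l1* and *Avp* against *Nqo1*, *Acsm4*, *Cd55*, *Cartpt* and *Socs2*) the clusters differed by only -0.02, in 4 of 6 libraries (p = 0.938, exact sign-flip test), so the difference depends on the markers.

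The single markers of the lists did not all go the same way. *Nqo1* was at 853 and 1084 CPM in distal cells of the control libraries and at 12.6 and 184 CPM in proximal cells. In the *gg8tTA* library it was at 1396 and 344 CPM, in that order. *Acsm4* was at 305 and 297 CPM in distal and 6.30 and 134 CPM in proximal cells of the control libraries. The ventral markers of the score were each lower in distal cells of both control libraries. *Sema3f*, dorsal in the score, was at 14.4 and 16.2 CPM in distal and 18.9 and 40.6 CPM in proximal cells there. In the other libraries it was higher in distal cells. *Robo2*, also dorsal in the score, was at 93.7 and 140 against 101 and 131 CPM in the control libraries. It was lower in distal cells of both swap libraries and higher in those of *gg8tTA* and *tetOP2*. The complement regulator *Cd55*, counted as dorsal in the second list, ran against *Nqo1*. It had 33.6 and 14.7 CPM in distal and 151 and 215 CPM in proximal cells of the control libraries. It was lower in distal cells in each of the 6 libraries. *Cidea*, counted as ventral in the second list, was at 137 and 79.4 CPM in distal and 18.9 and 16.7 CPM in proximal cells of the control libraries. *Pcp4l1*, also counted as ventral there, was at 435 and 1238 CPM in distal and 18.9 and 423 CPM in proximal cells. *Cartpt*, a neuropeptide gene counted as dorsal, was at 1986 and 2203 against 1481 and 1569 CPM, and *Socs2* at 235 and 350 against 277 and 181 CPM. *Avp*, *Rprm* and *Ifi27* were at 0 to 31.5 CPM in both in the control libraries, while *Avp* reached 155 and 123 CPM there in the cells of other ORs. Elsewhere *Ifi27* reached 87.6 CPM (proximal cells of swap replicate 1) and *Rprm* 73.95 CPM (distal cells of *gg8tTA*).

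Receptors differed widely in their mean score. Among the 28 members with at least 3 cells in the control and *gg8tTA* libraries, the mean score ran from -1.97 (*Olfr878*, 4 cells) to 1.21 (*Olfr845*, 4 cells). The SD of the member means was 1.00, while the pooled SD of cells within a member was 0.66. That SD ran from 0.14 (*Olfr948*) to 1.30 (*Olfr943*), and the cells of *Olfr884*, *Olfr872* and *Olfr859* also spread as widely as the member means. The spread of *Olfr943* rests largely on 1 cell of only 2587 UMIs, with a score of 2.94. That of *Olfr884* rests largely on 1 cell of 45605 UMIs, with a score of 0.60, which also held 75 UMIs of *Olfr1490*. Of the 19 distal members 14 were below 0, as were 3 of the 9 proximal members.

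Among members with at least 5 such cells the most dorsal were *Olfr884* (-1.58 ± 1.26, SD over 5 cells, all of 1 library), *Olfr976* (-1.57 ± 0.46, 6 cells), *Olfr961* (-1.31 ± 0.24, 5 cells), *Olfr874* (-1.06 ± 0.65, 5 cells) and *Olfr972* (-0.74 ± 0.97, 6 cells), all distal. *Nqo1*, itself part of the score, was at 818 to 2234 CPM in their cells. The most ventral were *Olfr984* (1.17 ± 0.15, 5 cells) and *Olfr910* (0.81 ± 0.58, 9 cells), both distal, and *Olfr835* (0.36 ± 0.23, 7 cells), which is proximal. Cells of *Olfr984* held 0 UMIs of *Nqo1* and 721 CPM of *Nfix*, and those of *Olfr910* 31.9 CPM of *Nqo1* and 298 CPM of *Nfix*. Both markers are part of the score that ranked these members, so their levels are no separate evidence of position. By this score the ventral distal genes therefore sit in a cluster in which 14 of the 19 members with at least 3 cells were below 0. The rest of the 80 distal members had too few cells to be placed. Only 8 members had 5 such cells, so *Olfr972* and *Olfr874* are also the next most ventral ones.

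**Figure D2:**
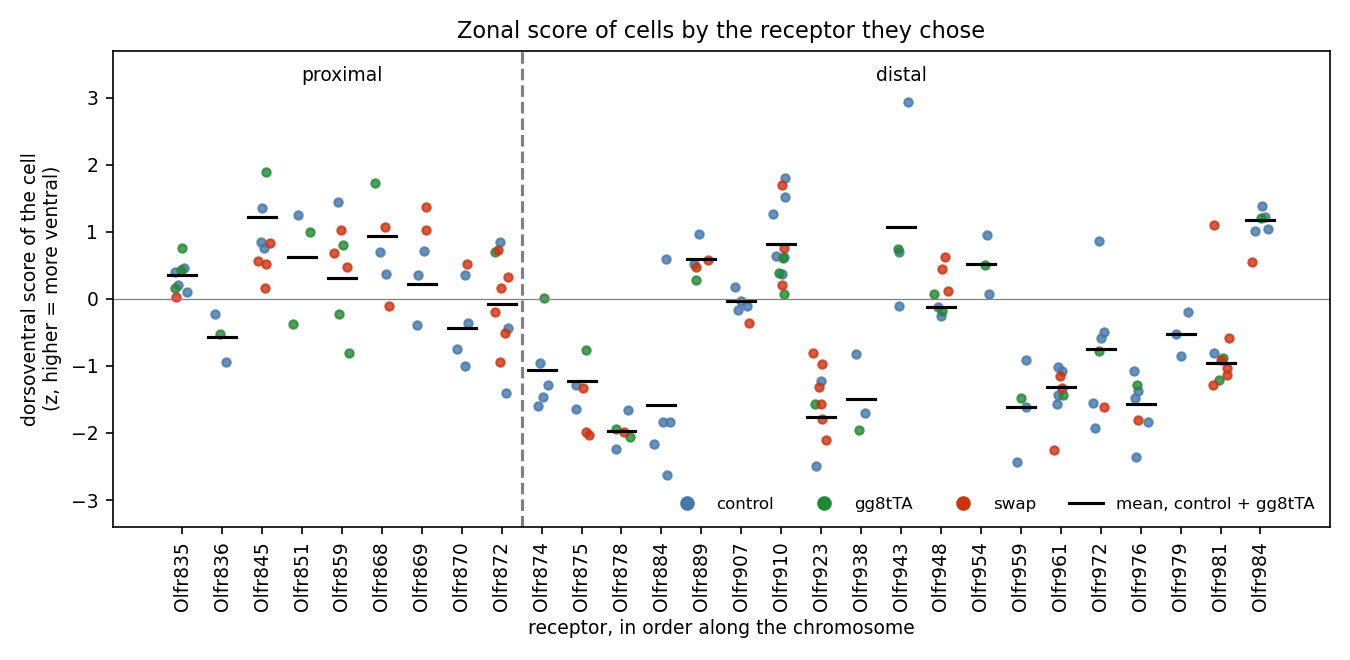
Dorsoventral score (z, higher is more ventral) of each cell that chose one of the 28 members with at least 3 control or *gg8tTA* cells, in order along the chromosome, with the proximal cluster left of the dashed line. Points are cells, coloured by group, and bars are means of control and *gg8tTA* cells, from -1.97 for *Olfr878* to 1.21 for *Olfr845*.

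The score of member cells did not separate swap from control libraries (-0.49 ± 0.12 against -0.41 ± 0.22, SD, n = 2 each; exact permutation test, two-sided, p = 0.667). The replicates numbered 1 differed by -0.32 and those numbered 2 by 0.16. Within a receptor, 11 members had at least 2 cells in both genotypes. Of these, 6 had the lower score in swap cells and the median difference was -0.05, with a range from -0.46 (*Olfr845*) to 0.97 (*Olfr869*). In terms of position classes, with ventral receptors taken as the 25% of scored ORs with the highest mean score in *gg8tTA* and the control library of the other number, 19 members were scored for the replicates numbered 1 and 11 for those numbered 2, with 2 ventral members each time. Ventral members were chosen by 2 of 18 and 3 of 15 scored member cells in control libraries and by 0 of 17 and 2 of 14 in swap libraries. These shares of 15.6% ± 6.29 and 7.14% ± 10.1 (SD, n = 2 each) overlapped (exact permutation test, two-sided, p = 0.667). The difference of -8.41 points ran from -15.6 without swap replicate 2 to -1.27 without swap replicate 1, and was -12.9 and -3.97 without control replicates 1 and 2.

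In mature OSNs the summed shares of the 2 clusters differed between genotypes with opposite signs, without passing a test. Single members went both ways. A higher mean share in swap libraries was found for 12 proximal (42.9%) and 14 distal members (17.5%), beside 32.7% of the other ORs. A lower one was found for 8 proximal (28.6%) and 33 distal members (41.25%), beside 46.1% of the other ORs. These percentages are of all genes of each set, chosen or not. Proximal members were chosen by 13 of 953 and 21 of 1179 cells in the control libraries, which is 1.36% (0.728% to 2.32%) and 1.78% (1.11% to 2.71%). In the swap libraries they were chosen by 19 of 677 and 25 of 955 cells, or 2.81% (1.70% to 4.35%) and 2.62% (1.70% to 3.84%). Both swap values lay above both control values, by 1.14 percentage points. The *gg8tTA* library, which has no swap allele, also stood at 2.81% (1.65% to 4.47%).

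Distal members were chosen by 39 of 953 and 50 of 1179 cells of the control libraries, or 4.09% (2.93% to 5.55%) and 4.24% (3.16% to 5.55%), and by 28 of 604 of *gg8tTA*, or 4.64% (3.102% to 6.63%). In the swap libraries the values were 16 of 677, or 2.36% (1.36% to 3.81%), and 26 of 955, or 2.72% (1.79% to 3.96%). Both lay below the control and *gg8tTA* libraries, with a difference of -1.62 percentage points from the control mean, although intervals of single libraries overlapped. The *tetOP2* library, which has no swap allele either, was not higher than the swap libraries. It had 7 distal cells of 652 (1.07%, 0.433% to 2.20%), or 7 of 271 with the cells that chose *Olfr17* left out. Proximal genes thus made up 13 of 52 and 21 of 71 member cells in control libraries and 19 of 35 (54.3%) and 25 of 51 (49.0%) in swap libraries. The *gg8tTA* library stood between, at 37.8%. Each of these comparisons gave p = 0.333 in the exact two-sided permutation test, the smallest value possible. Within replicate numbers the proximal share of member cells differed by 29.3 points (1) and 19.4 points (2). The division by cluster was made after the values had been seen.

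**Figure D3:**
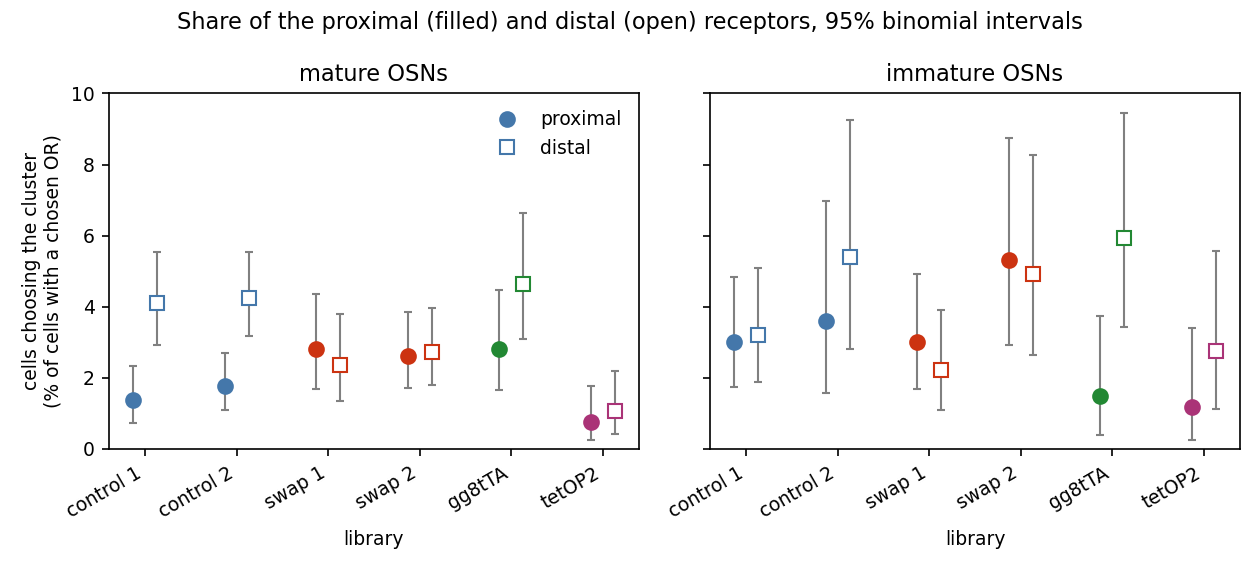
Share of cells with a chosen OR (%) that chose a proximal (filled) or distal (open) member, in mature (left) and immature (right) OSNs of each library, with exact 95% binomial intervals for counting error. In mature OSNs the distal share was 4.09% and 4.24% in control and 2.36% and 2.72% in swap libraries, and the immature shares of the groups overlapped.

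Immature OSNs, with at least 10 *Gap43* UMIs and more *Gap43* than *Omp*, had differences of the same signs, but with overlapping groups. Members were chosen by 33 of 531 (6.21%) and 20 of 222 (9.01%) immature cells with an OR in control libraries and by 26 of 498 (5.22%) and 27 of 264 (10.2%) in swap libraries. The proximal share was 3.01% and 3.604% in control and 3.01% and 5.30% in swap libraries, a difference of 0.849 points (two-sided exact permutation test, p = 1.0). The distal share was 3.20% and 5.41% against 2.21% and 4.92%, a difference of -0.737 points (exact permutation test, p = 0.667), lower in swap for both replicate numbers. With 2 libraries a group, such overlap does not show that a difference is absent. Among immature member cells alone, proximal genes made up 16 of 33 and 8 of 20 in control and 15 of 26 and 14 of 27 in swap libraries, without overlap of the shares (exact permutation test, p = 0.333; difference 10.5 points, and 6.29 without control replicate 2). Whether the difference between genotypes itself differed between stages was not tested.

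Few single members stood out. *Olfr846*, a proximal gene 88.6% identical in its coding sequence to its neighbour *Olfr847*, was chosen by 3 cells of each swap library and by none of 953 and 1179 cells of the control libraries (0 counts allow up to 0.315% and 0.254%). Its 6 cells held only 3 to 27 UMIs of it. Their scores, all of swap cells, averaged -1.58 ± 0.13 (SD over cells). The means of *Olfr884* and *Olfr878*, -1.58 and -1.97, are of control and *gg8tTA* cells. *Olfr847* was chosen by 2 and 3 swap cells, 0 and 1 control cells and 1 *gg8tTA* cell. Its 5 swap cells averaged a score of -1.26 and its 2 other cells -0.14.

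*Olfr981* had 3 and 3 swap cells against 0 and 1 control cells, with 77 to 342 UMIs a cell. The *gg8tTA* library, with 2 cells of 604 (0.331%), was no lower than swap replicate 2 (0.314%). *Olfr923* had 4 and 2 swap cells against 0 and 2 control cells, and *Olfr872* 4 and 2 against 1 and 2. On the lower side, *Olfr976* had 4 and 1 control cells against 0 and 1 swap cells, and *Olfr972* 3 and 2 against 0 and 1. *Olfr874* had 2 and 2 control cells and *Olfr959* 2 and 1, and neither had a swap cell. All 5 cells of *Olfr884* came from control replicate 2. *Olfr875*, near-identical to *Olfr874*, was chosen by 3 swap cells and 2 control cells.

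No member passed the test of choice counts. With edgeR's quasi-likelihood test on cells per OR, over the 297 ORs that passed a minimum of 5 cells, 0 of 20 members were called (adjusted p under 0.05, log2 fold change beyond 0.58 either way), beside 1.35% of all ORs tested. DESeq2 called 0 members as well. At an unadjusted p below 0.05 the edgeR test had 1 member, *Olfr846* (adjusted p = 0.176), beside 18.5% of all ORs. The median log2 fold change of the 20 members was 0.37 and that of all 297 ORs 0.31. In swap libraries 36 members were chosen (32.7%) against 59 in control libraries (53.6%), which also held more member cells. Of the other ORs 48.8% were chosen in swap and 70.4% in control libraries. Chosen in control and not in swap libraries were 31 members (28.2%, beside 30.02% of the other ORs). Of these 27 were distal (33.75% of the distal members) and 4 proximal (14.3% of the proximal members). Chosen in swap and not in control libraries were 8 members (7.27%, beside 8.45%). The shares of 28.2% and 7.27% lay near those of the other ORs. Drawn down to 35 member cells a library, 27.0 and 27.4 different members were expected in control libraries and 17.0 and 23.8 in swap libraries (27.2 ± 0.29 against 20.4 ± 4.79, SD, n = 2 each; exact permutation test, two-sided, p = 0.333). The difference of -6.78 members was -3.39 without swap replicate 1 and -10.2 without swap replicate 2.

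When UMIs were summed over the mature OSNs of each library, 35 members passed edgeR's filter on low counts, a filter that members reach mainly through the group in which they are high, and 0 were called (0% of the 13452 genes tested were called). At an unadjusted p below 0.05 there were 10 of the 35, of which 8 were lower in swap, beside 2.47% of all genes and 29.9% of the 579 OR genes tested. The median log2 fold change, swap against control, was -0.38 over the 35 members, 0.35 over 16 proximal and -0.47 over 19 distal ones, -0.30 over the OR genes and -0.0028 over all genes.

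DESeq2 called 9 of the same 35 members. Of these 8 were lower in swap (*Olfr836*, *Olfr873*, *Olfr874*, *Olfr916*, *Olfr954*, *Olfr959*, *Olfr965* and *Olfr984*), where 1.01% of all genes and 20.4% of the OR genes were called lower. *Olfr846* alone was higher, where 0.483% of all genes and 6.39% of the OR genes were called higher. *Olfr959* had 343 and 436 UMIs in the control libraries and 0 and 0 in the swap libraries (DESeq2 adjusted p = 6.51e-10, edgeR adjusted p = 0.140), from only 2 and 1 cells choosing it. *Olfr984*, the ventral distal gene, had 66 and 166 UMIs in control and 3 and 13 in swap libraries (DESeq2 log2 fold change -3.60, standard error 0.81, adjusted p = 8.6e-04, edgeR adjusted p = 0.432). *Olfr846* had 0 and 0 UMIs in control and 43 and 40 in swap libraries. Most of the 457 UMIs of *Olfr873* in control replicate 1 came from the 1 cell that chose it, with 437. Summed counts of a member thus rest on few cells, and fewer cells choosing a gene cannot be told apart from less RNA per cell in such sums.

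OSNs that chose a member held less of it than OSNs held of other ORs. The median level of the chosen member was 5197 and 6276 CPM in the control libraries, 4553 and 4303 CPM in the swap libraries, 7120 CPM in *gg8tTA* and 5835 CPM in *tetOP2*. For the chosen OR of all other cells it was 6023, 7355, 5056, 7394, 7861 and 8611 CPM. Members were lower in 6 of 6 libraries, with a mean difference of -1503 ± 1128 CPM (SD, n = 6; exact sign-flip test, two-sided, p = 0.0313, adjusted p = 0.0417). In *tetOP2*, however, 381 of the 640 cells of other ORs had chosen *Olfr17*, the receptor of the transgene. Over the 4 swap and control libraries alone the mean difference was -1375 CPM (exact sign-flip test, p = 0.125, the smallest possible there). With each cell thinned to 3000 UMIs, which left out 1 member cell of each control library and none of the others, the medians were 15, 18, 16, 12, 21 and 16.5 UMIs against 18, 23, 15, 22, 23 and 26, lower in 5 of 6 libraries (p = 0.0625, exact sign-flip test). Single receptors spread far apart. *Olfr870* held 350 to 607 UMIs in its 6 cells, *Olfr859* 90 to 210 in 7 and *Olfr961* 4 to 20 in 8. *Olfr976* held 13 to 43 in its 7 cells. Levels of different genes are not scaled by length.

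**Figure D4:**
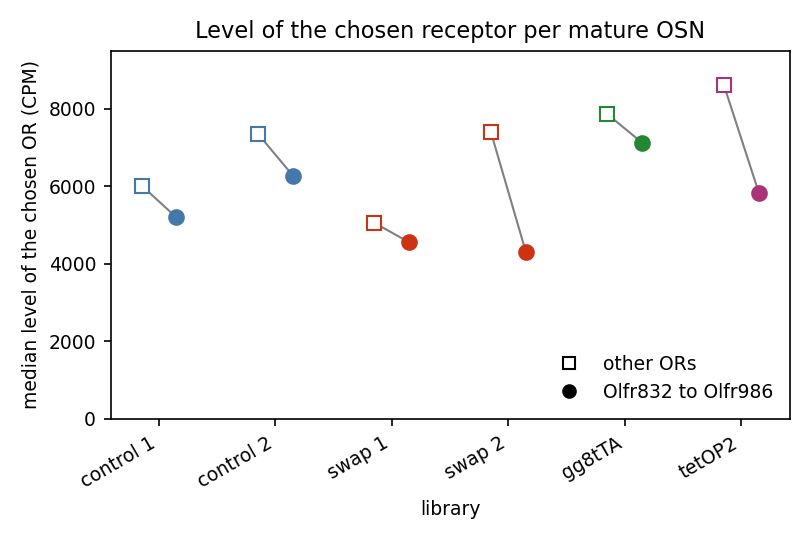
Median level (CPM) of the chosen OR in mature OSNs of each library, for cells that chose a member (circles) and cells that chose another OR (squares). Circles lie below squares in all 6 libraries, from 4303 to 7120 CPM against 5056 to 8611 CPM. The square of *tetOP2* includes 381 cells that chose *Olfr17*, the receptor of the transgene.

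Between genotypes the level of chosen members was 4428 ± 177 CPM in swap and 5736 ± 762 CPM in control libraries (SD, n = 2 each), a difference of -1308 CPM without overlap (exact permutation test, two-sided, p = 0.333). It was -1847 CPM without control replicate 1 and -769 CPM without control replicate 2. The cells compared had chosen different members in part.

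In all 10 mature OSNs that chose *Olfr872*, of 5 libraries, *Olfr39* was also found. *Olfr39* is an OR of the same cluster that the naming rule leaves out. The 10 cells held 33 to 79 UMIs of *Olfr872* and 6 to 44 of *Olfr39*, which is 18.0% to 55.7% of the *Olfr872* count. In 5 of the 10 *Olfr873* was present as well, with 1 to 4 UMIs. The reverse was not seen, since 5 mature and 4 immature cells that chose *Olfr39*, with 86 to 332 UMIs of it, held 0 UMIs of *Olfr872*. Among 4999 mature OSNs that chose none of these neighbours, 2 held a UMI of *Olfr39* (0.0400%).

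In GENCODE M21 (GRCm38) *Olfr872* (chr9:20237119-20261643), *Olfr39* (chr9:20282351-20287578) and *Olfr873* (chr9:20298532-20303599) follow each other on the plus strand, with gaps of 20707 and 10953 bases. *Olfr18* (chr9:20312152-20336094) comes next, on the minus strand and facing them. Its cells had company too. All 4 mature cells that chose *Olfr18*, with 30 to 41 UMIs, held 3 to 19 UMIs of *Olfr873*, and 3 of the 4 held 2 or 3 UMIs of *Olfr39*. The 1 immature cell of *Olfr18* had 33 UMIs of *Olfr873*. In contrast, 4 of the 5 immature and 1 of the 2 mature cells that chose *Olfr873* held none of the other 3 genes. The annotated transcripts of *Olfr872* and *Olfr39* share no stretch of 30 bases, nor do those of *Olfr39* and *Olfr873* or of *Olfr873* and *Olfr18*. Those of *Olfr872* and *Olfr18* share 6 words of 30 bases. Words were counted at every offset, so these may overlap, and the reverse strand was not compared. The source of these UMIs was not tested, and the strand setting of the counting is not given in the sources used here.

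**Figure D5:**
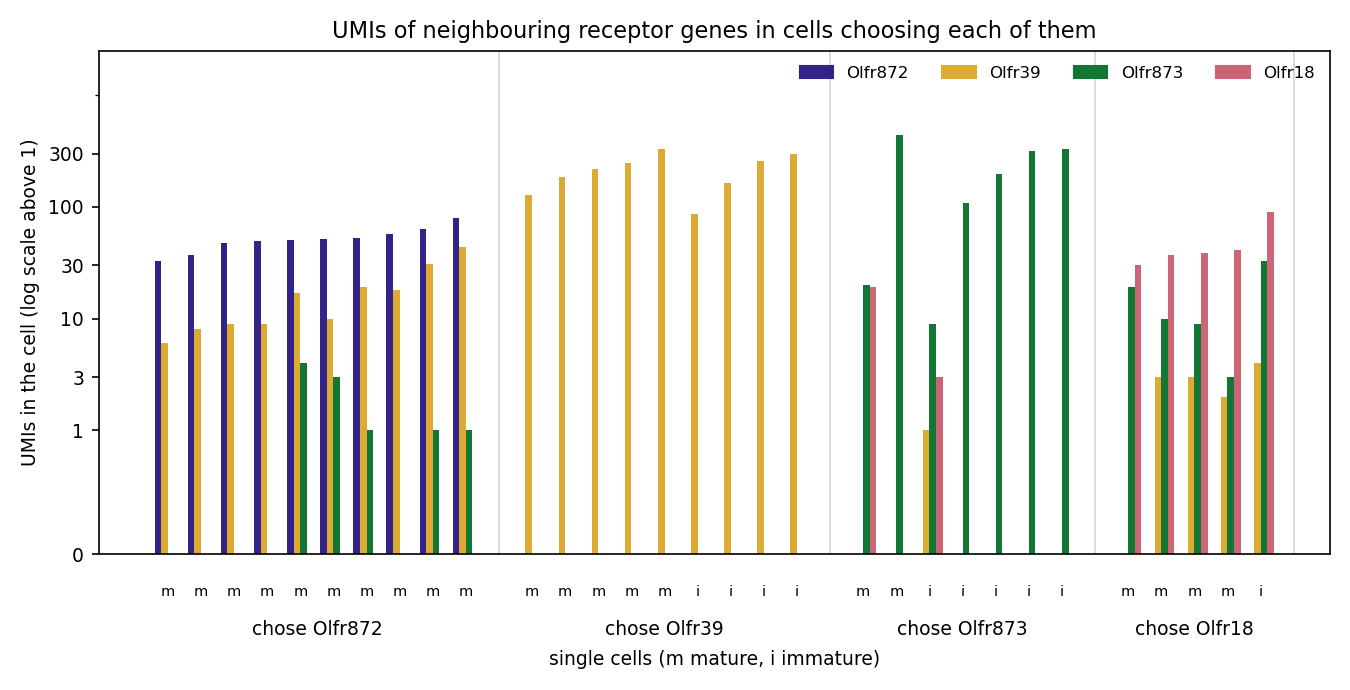
UMIs (log scale above 1) of *Olfr872*, *Olfr39*, *Olfr873* and *Olfr18* in each mature (m) or immature (i) cell that chose one of these 4 neighbours. Each of the 10 cells that chose *Olfr872* also holds 6 to 44 UMIs of *Olfr39*, and the 9 cells that chose *Olfr39* hold none of the other genes.

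A second OR of at least 3 UMIs was found in 25 of the 266 member cells, 10 of them *Olfr872* cells. By library it was found in 2 of 52 and 7 of 71 member cells of the control libraries (3.85% and 9.86%), 4 of 35 and 7 of 51 of the swap libraries (11.4% and 13.7%), 5 of 45 of *gg8tTA* (11.1%) and 0 of 12 of *tetOP2* (exact 95% interval 0% to 26.5%). The swap libraries lay above the control libraries by 5.72 percentage points (exact permutation test, two-sided, p = 0.333), or by 2.72 without control replicate 1 and 8.73 without control replicate 2. Without the *Olfr872* cells the shares were 1.96% and 7.25% in control and 0% and 10.2% in swap libraries, which overlapped, and the difference was 0.4965 points. Member cells and cells of other ORs did not differ beyond the libraries' spread in this share (difference 1.96 ± 4.54 points, SD, n = 6; exact sign-flip test, p = 0.313, adjusted p = 0.313). Other pairs recurred little. *Olfr923* and *Olfr649*, a gene of chromosome 7, were together in 2 cells of swap replicate 2, and *Olfr872* with *Olfr873* was the only pair of members that recurred at 3 UMIs or more, also in 2 cells. The pairs *Olfr915* with *Olfr916*, *Olfr982* with *Olfr983* and *Olfr834* with *Olfr835*, all neighbours, were each seen in 1 cell. In the replicates numbered 2, some cells with a second OR were deep. Those of *Olfr884*, *Olfr938*, *Olfr847* and *Olfr857* (control) and *Olfr923* and *Olfr860* (swap) held 22439 to 48607 UMIs in total. Those of *Olfr870* (control), *Olfr889* and *Olfr983* (swap) held 12874 to 16813. Member cells of these libraries had medians of 12717 and 12826 UMIs. Doublets left after the filter were not tested for.

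In the *tetOP2* library most OSNs had the transgenic receptor P2 as their chosen OR. *Olfr17* was the chosen OR of 381 of 652 cells in the *tetOP2* library (58.4%, exact 95% interval 54.5% to 62.2%) and of 1 of 604 in the *gg8tTA* library (0.166%, 0.00419% to 0.919%). Members were chosen by 12 of the 652 cells (1.84%) against 45 of 604 (7.45%). With *Olfr17* cells left out, 12 of 271 cells chose a member (4.43%, 2.31% to 7.61%) against 45 of 603 (7.46%, 5.50% to 9.86%), and these intervals overlap. With 1 library a group there is no replicate check and no test.

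In the *tetOP2* library 5 of the member cells chose proximal and 7 distal genes, against 17 and 28 in *gg8tTA*. The 12 cells chose 10 different members, *Olfr845* and *Olfr943* by 2 cells each and *Olfr870*, *Olfr918* and *Olfr945*, among others, by 1. *Olfr859*, with 3 cells in *gg8tTA*, and *Olfr851*, *Olfr878*, *Olfr934* and *Olfr981*, with 2 each, had none in *tetOP2*. Immature cells chose a member in 10 of 255 cases (3.92%, 1.90% to 7.09%) against 20 of 270 (7.41%, 4.58% to 11.2%). These immature shares keep the cells that chose *Olfr17* and were not taken without them. None of the 381 *Olfr17* cells held 3 or more UMIs of any member, which allows a share of up to 0.787%, and together they held 16 member UMIs.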

How the data were processed

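Single-cell RNA-seq of 6 libraries was used. The authors deposited counts, namely UMIs per gene and cell barcode made with Cell Ranger with introns included and not normalized. The submitters' processing notes name mm10. Members, clusters and lists were chosen with earlier results of these data known.

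Barcodes below 1000 UMIs or 500 genes were dropped. Control replicate 2 kept 57.5% of its barcodes and the other libraries 84.4% to 100%. Predicted doublets (0.8% per 1000 cells, 15 neighbours, 30 components of 2000 variable genes), 2.07% to 4.07% of the kept cells, were left out. Shares have exact Clopper-Pearson intervals at 95%, and a count of 0 allows 3 counts. Intervals and limits cover counting error only, since cells of 1 library are not replicates. Group values were compared over libraries by exact two-sided permutation, and within-library differences by exact sign flips. The comparisons within libraries and by cluster, and those without *Olfr872* cells, were chosen after seeing the data. UMI sums and choice counts were tested with edgeR 4.0.16 (quasi-likelihood, TMM for sums and cell totals for choice counts, Benjamini-Hochberg), with DESeq2 1.42.0 as the alternative. The thresholds for calls are those of the study's bulk RNA-seq. Tested on simulated data, the test of sums recovered 156 of 200 changed genes with 6 false calls among 13612 genes, and 11 of 50 changed 2-fold. The test of choice counts recovered 11 of 40 among 288 ORs, and 6 of 10 changed 16-fold, so it could miss large changes. All simulated counts had the same fixed spread between libraries beyond counting error. Sums of members rest on few cells and can spread more (457 and 23 UMIs of *Olfr873* in control libraries), so recovery among them may be lower. Coding sequences of 108 members (GENCODE M21) were aligned with MAFFT 7.526.

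Members named in the text were fixed by rule: the 10 with the most cells in the control and *gg8tTA* libraries, those called by edgeR, the 5 largest rises and falls in each comparison, the 5 most dorsal and ventral with 5 cells, the 3 pairs found together most often, and those without a UMI by count. Others were named after their values had been seen. The study's methods give 2 biological replicates, and the labels say no more of their source. The labels of swap and control mice list no gg8-tTA construct and the study's methods for these libraries give no sort, while the series text gives both. Same-numbered swap and control libraries deviated together (r = 0.215 over 13452 genes), which with 2 pairs is given as a hint only. Alternatives were the minimum of 1 or 10 UMIs for the chosen OR, an *Omp* minimum of 3, doublets kept, another marker list, thinning, other normalizations, no filter, the replicate number as a block, and each library left out. A part of the genotype labels is not reported here.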

Additional observations from a re-analysis of the deposited data

Results flagged for a closer look

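The swap minus control difference had opposite signs in the 2 chromosome 9 clusters, 1.14 percentage points for proximal and -1.62 percentage points for distal members as shares of mature OSNs with a chosen OR. Both swap libraries lay on one side of both control libraries in each case. The division by cluster was made after the values had been seen, so this separation is no independent support. The *gg8tTA* library, which has no swap allele, had shares of 2.81% (proximal) and 4.64% (distal). The difference between the clusters was tested only as the proximal share of member cells (24.4 points, exact permutation test over 4 libraries, p = 0.333, the smallest possible).

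Outside the cells of the main comparison, *Olfr944* was chosen by 6 immature OSNs and by no mature OSN. The cells came from control replicate 1 (2 cells), swap replicate 2 (1), *gg8tTA* (2) and *tetOP2* (1), and immature cells of these libraries held 114, 110, 204 and 34 UMIs of it, while all mature OSNs together held 2.

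*Olfr39*, which the naming rule leaves out, had 3 or more UMIs in 10 of 10 mature OSNs that chose *Olfr872*.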

How the results depend on the processing

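Of 153 alternative values for 21 results, 137 were counted as the same. For the 4 comparisons within libraries this meant the same direction and the same side of p = 0.05 in the exact sign-flip test. For the counts of called members it meant an equal or similar count. In the permutation tests of swap against control no p below 0.333 was possible, so only the direction could change. In the test of UMI sums edgeR called 0 members and DESeq2 9. With the replicate number as a block edgeR again called 0 members in UMI sums and 0 in choice counts. In UMI sums it called 0 of all 13452 genes with or without the block, so unchanged calls cannot show whether the pairing matters. With the block the median log2 fold change in UMI sums moved from -0.47 to -2.32 over the 19 distal members. Over the 16 proximal members it stayed at 0.35. With either control library left out, edgeR called many other OR genes and also non-OR genes in UMI sums. The counts of called members in those fits, given next, are thus not particular to the members. With single libraries left out the count in UMI sums ran from 0 to 24 (14 without control replicate 1 and 24 without control replicate 2, where the lone control is assumed to vary like the swap libraries) and that in choice counts was 0 each time.

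The swap minus control difference in the score of member cells turned to 0.0094 with doublets kept and to 0.077 and 0.0080 without control replicate 1 or swap replicate 1 (range -0.235 to 0.077). That in the immature member share, 0.112 points, turned to -0.852 with a minimum of 10 UMIs, to -0.00226 with doublets kept, and ranged from -2.39 (without swap replicate 2) to 2.62 with single libraries left out (-1.28 without control replicate 1). The immature proximal share ranged from -0.296 (without swap replicate 2) to 2.00 points and the immature distal share from -2.10 to 0.621 points (without swap replicate 1; 0.365 without control replicate 2). With single libraries left out, the difference in the proximal share of mature OSNs ranged from 0.931 to 1.35 points and in the distal share from -1.80 to -1.44 points. The lower level of chosen members had p = 0.0625 (exact sign-flip test) with a minimum of 10 UMIs (-974 CPM) and after thinning (-4.75 UMIs), lower in 5 of 6 libraries each time. The distal minus proximal score was -0.0154 with the second marker list. The cause of these changes was not tested.

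TMM in place of cell totals moved the median log2 fold change of choice counts over all ORs from 0.31 to -0.21 and that of the members from 0.37 to -0.18, with 0 members called. Among 184 alternative values for the shares of the 23 named members, 2 moved by more than the spread between replicates. Most members rest on under 5 cells a library, which limits what any test of a single receptor can show.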

Other observations

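Among the 40 members that no mature OSN had chosen, 16 were chosen by at least 1 immature OSN, 12 of them distal, beside 51 of 173 such genes among the other ORs. *Olfr921* was chosen by 3 immature cells of control replicate 1, with 289 UMIs in immature cells of that library and 2 in all mature OSNs. *Olfr904*, *Olfr951* and *Olfr960* had 2 immature cells each, in 2 libraries each, with 162, 130 and 23 UMIs over all kept cells and 0 or 1 in mature OSNs. These genes were picked out after their values had been seen. No comparison of the stages was tested.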
